A study of Mus musculus with 6 samples.

Results

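The genes described here encode the proteins of the cytosolic ribosome, together with close relatives of those proteins. They were taken by name from the deposited gene tables, as protein-coding genes whose mouse symbol begins with Rpl or Rps and a number, plus Rplp0, Rplp1, Rplp2 and Rpsa. The S6 kinase genes, whose symbols begin with Rps6k, and rows named as pseudogenes were left out. This gave 86 of the 24815 gene rows. They comprise 31 genes of the small (40S) subunit, 46 of the large (60S) subunit, 8 paralogs (duplicates of a ribosomal protein gene) and Rps19bp1, which matches the name rule but encodes a nucleolar protein that binds RPS19 and is not part of the ribosome. The genes lie on 19 chromosomes. Fau and Rack1, whose products are also part of the ribosome, fall outside the name rule and are given beside the others.

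The ribosome joins a small subunit, which reads the mRNA, to a large subunit, which makes the peptide bond, and a growing cell needs their proteins in matched amounts. Ribosomal protein mRNAs are short and abundant, and most begin with a run of pyrimidines (the 5′ TOP motif) through which growth signalling controls their translation. Blood formation is sensitive to this supply: loss of a single copy of one of several ribosomal protein genes causes Diamond-Blackfan anemia in people, in which red cell precursors fail.

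RNA sequencing was done on common myeloid progenitors sorted from fetal liver of C57BL/6 mice at E13.5, mid-gestation. The gate took cells without lineage markers, CD41, CD48 or Sca-1, positive for CD34 and c-kit and low for Fc receptor. Wild-type libraries A, F and L were compared with libraries C, D and Q from homozygous mutants (labelled -77-/-), which lack the -77 enhancer of Gata2 in every cell, so the deletion is not limited to one cell type. The comparison asks how transcript levels of these progenitors differ when the enhancer is missing. The labels do not say whether libraries came from separate embryos or pools, so p-values measure the spread between these 3 libraries per genotype, which may be technical.

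The libraries held 14473913 to 30596279 expected counts, which are reads apportioned to genes by RSEM. Gata2 was lower in the 3 mutant libraries, without overlap (78.6, 57.4 and 63.9 CPM in A, F and L against 8.92, 16.5 and 17.8 CPM for C, D and Q), where CPM is the count scaled to library depth by TMM. All 10 progenitor markers were detected in every library, and their summed level was 3990 to 5126 CPM. Mutant C stood apart from the other 5 libraries. Mitochondrially encoded genes took 10.1% of its counts, against 3.54% to 5.80% in the others, and its count-weighted mean of gene length was 1795 bases, against 2826 to 3113. Results are therefore given with all 6 libraries and without mutant C. The 18 hepatoblast markers summed to 140, 97.7 and 71.4 CPM in A, F and L against 255, 129 and 702 CPM for C, D and Q, with 1 marker at 0 in wild type L and none at 0 elsewhere. The 16 erythroid markers summed to 917, 1120 and 685 CPM in wild type against 2381, 471 and 462 CPM for C, D and Q, with none at 0 in any library. The part of liver or erythroid transcripts in the results below was not tested.

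The starts of 6 of these genes, chosen by hand, are printed here because the run of pyrimidines at the first base is what marks a TOP mRNA. RefSeq promoter windows (build GRCm38.p6, 250 bases before to 50 bases after the start) were available for 66 of the 86 genes by symbol. These 66 genes had 78 windows, and a gene was counted if any of its starts matched. In 14 of the 66 (21.2%) an annotated first base was a C followed by at least 4 pyrimidines, against 3.01% of all 27025 genes in the table. The lines give 40 bases before and 15 bases from the start, 5′ to 3′ on the gene's strand, with the run of pyrimidines in capitals where the start carries it. For a gene with several starts, a start with the run was printed if any had it.
Rplp2 (chr7:141447611-141447665, plus strand): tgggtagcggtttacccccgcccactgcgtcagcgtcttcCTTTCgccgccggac
Rpl28 (chr7:4792925-4792979, plus strand): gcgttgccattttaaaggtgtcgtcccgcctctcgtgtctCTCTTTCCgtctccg
Rpl35 (chr2:39005117-39005171, minus strand): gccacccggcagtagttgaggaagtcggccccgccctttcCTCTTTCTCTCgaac
Rps18 (chr17:33955651-33955705, minus strand): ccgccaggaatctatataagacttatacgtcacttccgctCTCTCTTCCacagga
Rpl22l1 (chr3:28805468-28805522, plus strand): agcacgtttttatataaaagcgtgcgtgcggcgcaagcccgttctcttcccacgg
Rps27l (chr9:66946046-66946100, plus strand): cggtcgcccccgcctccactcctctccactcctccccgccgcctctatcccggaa
The canonical genes Rplp2, Rpl28, Rpl35 and Rps18 start inside a run of 5 to 11 pyrimidines. At the annotated starts of the paralogs Rpl22l1 and Rps27l these letters are not found, as at those of most of the 66 genes. In both paralogs the annotated first base is a G, and a run of pyrimidines begins at the next base. The absence therefore rests on the annotated position and does not set paralogs apart. The letters CCGGAAG, the core bound by ETS factors, were found on either strand in a window of 26 of the 66 genes (39.4%), against 9.93% of all genes. The letters TATAAA were found on either strand in 7 (10.6%), against 15.7% of all genes. These are matches of letters in 1 window per annotated start and do not show binding.

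Ribosomal protein transcripts were abundant in every library and were highest in mutant C. The 86 genes took 6.88%, 8.32% and 8.72% of expected counts in wild types A, F and L, and 22.1%, 8.47% and 9.29% in mutants C, D and Q. Wild type was 7.97% ± 0.967 and mutant 13.3% ± 7.64 (SD, n = 3), a ratio of 1.67, which is 1.11 without mutant C. Mutants D and Q lay inside or just above the wild-type range, and mutant C far above it. The deposited TPM values, which correct for gene length, put the share at 17.6%, 20.3% and 20.8% in wild type against 34.6%, 20.6% and 21.1% in the mutant. On this scale too mutant C stood alone, and the ratio of the means was 1.30, or 1.06 without it.

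Of the 86 genes, 83 passed the filter on low counts. The 3 others were Rps27, with 0 counts in every library, and Rpl3l and Rpl10l, paralogs known mainly from muscle and testis, with at most 3 counts in the libraries. The median level of the 83 genes was 663, 894 and 878 CPM in A, F and L against 4520, 866 and 1038 CPM for C, D and Q. Mutant C was the highest of the 6 libraries for all 83 genes, and wild type A the lowest for 81. Mutant Q was second highest for 73. Libraries of 1 genotype therefore differed among themselves in the same direction for nearly every gene.

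**Figure D1:**
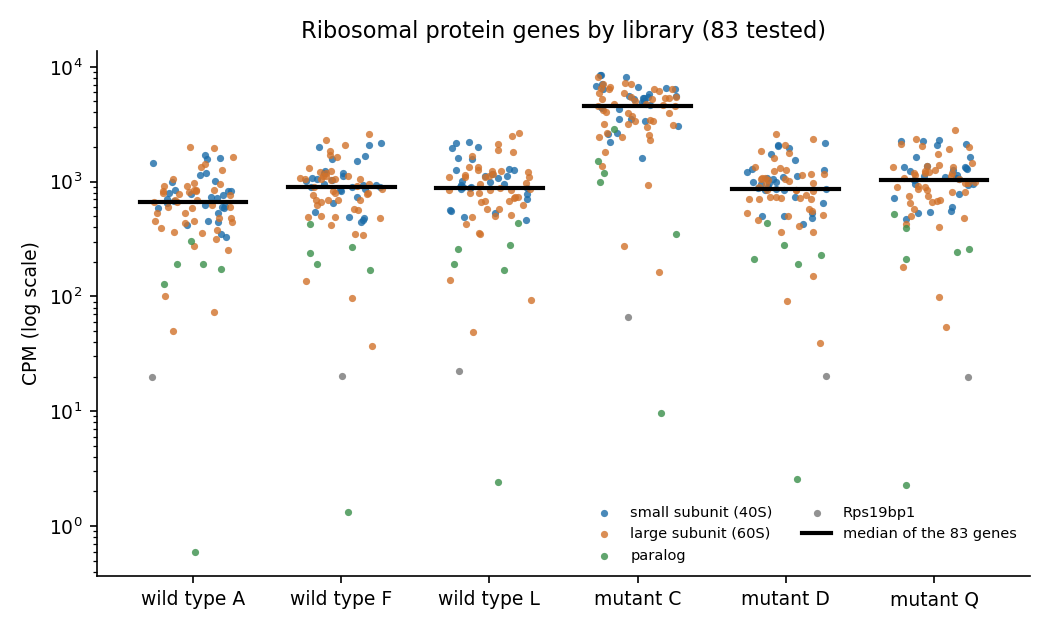
Level of the 83 tested ribosomal protein genes in each library. The vertical axis is CPM on a log scale, each point is 1 gene coloured by subunit or class, and black bars are medians. The medians of 5 libraries lie between 663 and 1038 CPM and that of mutant C at 4520 CPM, and the lowest point in each library is the paralog Rpl39l.

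No gene passed the test between genotypes. With all 6 libraries, edgeR's quasi-likelihood test put 0 of 83 past an adjusted p of 0.05, where 0.155% of all 12222 genes tested passed, and 4 of 83 (4.82%) had an unadjusted p under 0.05, against 4.8% of all genes. By DESeq2 0 of 85 passed, against 0.673% of all genes, with 70 (82.4%) at an unadjusted p under 0.05 against 7.19% of all genes, and limma-voom with library quality weights called 0 of 83, against 2.92% of all genes, with 10 at an unadjusted p under 0.05 (12%, against 16.5% of all genes). Without mutant C edgeR called 0 of 83, where 0.84% of all genes passed. In that fit 11 (13.3%) had an unadjusted p under 0.05, against 10.4% of all genes. All 11 were higher in the mutant, as were 4.34% of all genes at that p. The count at an unadjusted p rested on single libraries. It was 72 without mutant D (13.0% of all genes) and 56 without mutant Q (8.34%), but 0 without wild type A (2.41%), 0 without wild type F (3.2%) and 1 without wild type L (3.28%). In these 5 fits 0.0% of all genes, and 0 of the 83, passed the adjusted threshold by edgeR. Nor did any of the genes pass with other settings. Of all genes 0.195% passed without the low-count filter, 0.139% with DESeq2 size factors, 0.155% with limma on TPM or scaling without these genes, 0.475% with a trend on gene length removed, 1.01% with that and without mutant C, 0.156% with near-identical copies added and 0.858% with that and without mutant C.

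The fitted changes lay above 0 for all 83 genes with 6 libraries, against 48.0% of all genes tested, and their size rested on mutant C. The median log2 change, mutant over wild type, was 1.41, a fold of 2.66, beside -0.02 over all genes tested. Without mutant C the median was 0.20, a fold of 1.15, and the change was above 0 for 82 of 83 genes, against 48.3% of all genes. The exception was Rps19bp1, at -0.05. The small and large subunit had like medians of 1.39 and 1.39 with all libraries, and 0.19 and 0.20 without mutant C. Fau and Rack1 had log2 changes of 1.44 and 1.03 with all libraries and 0.21 and 0.10 without mutant C, and neither passed by edgeR in either fit. On the TPM scale the median log2 change was 0.35 over the 83 genes, beside -0.50 over all genes.

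For 19 of the 83 genes (22.9%) the lowest mutant library lay above the highest wild-type library, against 10.6% of all genes tested. For 0 genes every mutant library lay below, against 11.4% of all genes. Since mutant C was the highest library for every one of these genes, the same 19 separate without it, where 1698 of all 12614 genes tested did. They are the small subunit genes Rps2, Rps3, Rps12, Rps14, Rps25 and Rpsa, the large subunit genes Rpl13a, Rpl18, Rpl22, Rpl34, Rpl35, Rpl35a, Rpl36, Rpl38, Rpl41 and Rplp1, and the paralogs Rpl7l1, Rpl22l1 and Rps27l. Their margins were often narrow, as in Rpsa, with 1279 CPM in wild type L and 1297 CPM in mutant D. The count rose to 72 without mutant D (against 22.1% of all genes) and 56 without wild type L (17.5%). It was 29 by DESeq2 (9.21%), 38 with the length trend removed (15.7%) and 40 with that and without mutant C (21.3%). Scaled to the genes' own total, which compares each with the others, 17 were higher (0.458% of all genes) and 12 lower (28.7%) without overlap.

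**Figure D2:**
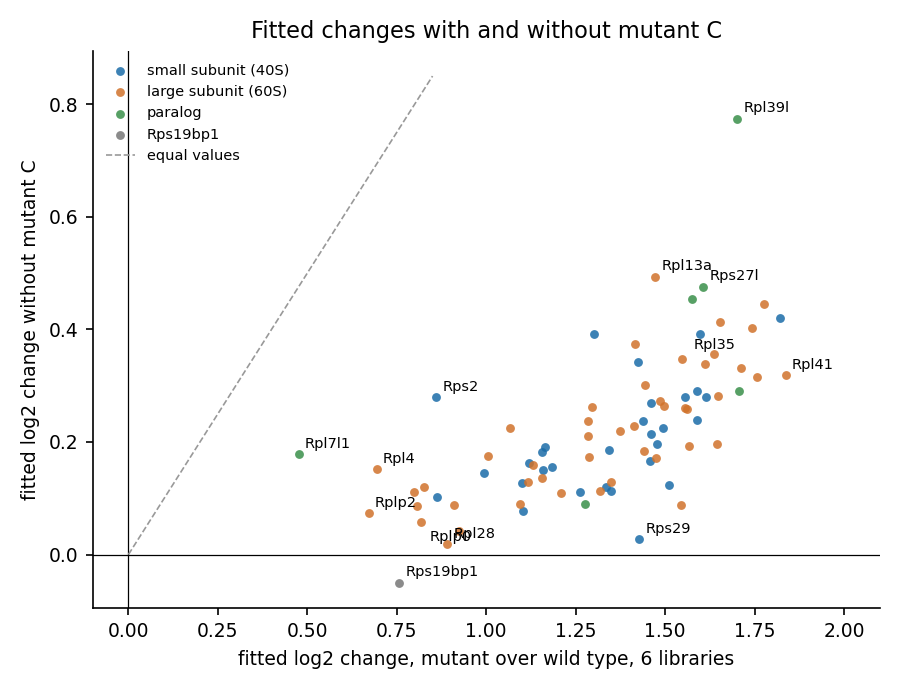
Fitted log2 change of mutant over wild type for the 83 genes, with all 6 libraries (horizontal axis) and without mutant C (vertical axis); the dashed line marks equal values. All genes lie below the dashed line, with medians of 1.41 and 0.20, and only Rps19bp1 lies below 0 on the vertical axis.

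Among the small subunit genes, 30 were tested and their log2 changes ran from 0.86 to 1.82 with all libraries and from 0.03 to 0.42 without mutant C. Rps14, whose single-copy loss underlies the anemia of the human 5q- syndrome, stood at 654, 939 and 928 CPM in A, F and L against 6644, 1000 and 1258 CPM for C, D and Q. The groups did not overlap, although mutant D lay close above wild types F and L. The log2 change was 1.82 (standard error 0.76, edgeR adjusted p = 0.58), and 0.42 (standard error 0.17, adjusted p = 0.46) without mutant C.
Rps3, a protein at the mRNA entry channel, was at 1153, 1568 and 1613 CPM in wild type against 6867, 1732 and 2075 CPM in the mutant. Its log2 change was 1.30, and 0.39 without mutant C (edgeR adjusted p = 0.45), again with no overlap of the libraries.
Rps19, the gene most often mutated in Diamond-Blackfan anemia, gave 672, 899 and 904 CPM in wild type against 4508, 866 and 926 CPM in the mutant. Mutants D and Q fell within or barely above the wild-type range, and the log2 change without mutant C was 0.11 (standard error 0.13, edgeR adjusted p = 0.78). Rps29, with the smallest change of the subunit without mutant C, was at 417, 542 and 567 CPM in wild type against 3064, 504 and 538 CPM in the mutant, a log2 change of 0.03 (standard error 0.13).

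Of the 18 tested genes of the Diamond-Blackfan list, all among the genes above, 0 passed by edgeR in either fit, with 1, Rpl35, at an unadjusted p under 0.05 in both. Over all genes 4.8% had such a p with all libraries and 10.4% without mutant C. With its near-identical copies added, Rpl35 had an unadjusted p by edgeR of 0.054 with all libraries and 0.053 without mutant C. The median log2 change of the 18 genes was 1.49 with all libraries and 0.25 without mutant C. The changes without mutant C ran from 0.03 for Rps29 to 0.40 for Rpl35, whose product sits near the exit of the peptide tunnel.

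Among the large subunit genes, all 46 were tested and their log2 changes ran from 0.67 to 1.84 with all libraries and from 0.02 to 0.49 without mutant C. Rpl13a, also known for a role in silencing inflammatory mRNAs, had the largest change of the subunit without mutant C. It lies on chromosome 7 from 45125558 to 45128761 (minus strand, GENCODE M21 on GRCm38, as for all gene positions here). Its level was 910, 1228 and 1331 CPM in A, F and L against 6361, 1336 and 1935 CPM for C, D and Q. Mutant D exceeded wild type L by only a few CPM, while mutant Q lay well above. The log2 change was 1.47 (standard error 0.61, edgeR adjusted p = 0.58), and 0.49 (standard error 0.19, adjusted p = 0.45) without mutant C.
Rpl39, which lines the tunnel, stood at 453, 685 and 717 CPM in wild type against 4668, 714 and 977 CPM in the mutant, so that wild type L and mutant D overlapped. Rpl41, the smallest ribosomal protein, was at 532, 689 and 679 CPM in wild type against 5201, 722 and 864 CPM in the mutant, with no overlap and log2 changes of 1.84 and, without mutant C, 0.32. Rpl34 (0.41) and Rpl22 (0.37), a protein needed for T cell development, also separated between genotypes without mutant C, and at an edgeR adjusted p of 0.47 and 0.48 neither passed. At the other end of the large subunit Rpl28, shown above with its TOP start, was at 697, 777 and 800 CPM in wild type against 2676, 737 and 806 CPM in the mutant, a log2 change of 0.02 without mutant C.

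RPL5 and RPL11 form a particle with 5S RNA that binds MDM2 and so stabilises p53 when ribosome assembly fails. Rpl5 was at 1410, 1833 and 1895 CPM in wild type against 6421, 1832 and 2056 CPM in the mutant. Rpl11 gave 799, 1052 and 1095 CPM in wild type against 5867, 1039 and 1345 CPM in the mutant. In both genes mutant D lay within the wild-type range, and the log2 changes without mutant C were 0.18 and 0.27. Of 20 tested p53 target genes 0 passed by edgeR with all libraries, where 0.155% of all genes passed. Without mutant C 1 fell, Perp, a desmosome and apoptosis gene, where 0.84% of all genes passed. Its log2 change in that fit was -1.83 (edgeR adjusted p = 0.01). In each fit 3 of the 20 reached an unadjusted p below 0.05, against 4.8% of all genes and, without mutant C, 10.4%. The median of the list was -0.09, and -0.02 without mutant C. The list went both ways: 9 of the 20 changes lay above 0, up to 0.92, and 10 without mutant C, up to 0.81.

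The stalk, a complex of RPLP0 with the acidic proteins RPLP1 and RPLP2 that recruits elongation factors, is described gene by gene. Rplp1 stood at 919, 1109 and 1243 CPM in wild type against 6195, 1248 and 1452 CPM in the mutant. Rplp2 was at 484, 485 and 581 CPM in wild type against 1375, 510 and 583 CPM in the mutant. Rplp0 gave 1942, 2322 and 2496 CPM in wild type against 7212, 2345 and 2368 CPM in the mutant. The mutant C value was thus far higher relative to the other libraries in Rplp1 (5.19-fold over the mean of the other 5) than in its partners Rplp2 (2.60-fold) and Rplp0 (3.14-fold). Without mutant C the log2 changes were 0.30, 0.07 and 0.06, and by edgeR none passed in either fit. On the TPM scale Rplp2 was 2162 ± 155 in wild type against 2039 ± 23.1 in the mutant (SD, n = 3), and here mutant C (2017) was the lowest of the mutant libraries.

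In mutant C the excess differed from gene to gene, and it followed the length of the coding sequence. The level in mutant C over the mean of the other 5 libraries had a median of 5.19-fold over the 83 genes, from 1.8-fold in Rpl7l1 to 7.46-fold in Rpl41, beside a median of 0.947-fold over all genes tested. It was at least 2-fold in 82 of the 83, against 19.2% of all genes. Across the 76 canonical genes tested, Spearman's rho between this fold and coding length was -0.66. The 8 canonical genes of up to 300 coding bases had a median of 6.33-fold (5.71 to 7.46), and the 14 of 700 bases or more a median of 4.11-fold (2.51 to 4.68), so the ranges of the shortest and the longest genes did not overlap. Rpl4, with 1257 coding bases, Rpl3 with 1209 and Rps2 with 906 were at 2.51-, 2.95- and 2.76-fold. Rplp2, at 345 coding bases and 2.60-fold, stood apart from genes of its length. With the deposited gene length rho was -0.47 for the 76 genes and -0.73 over all genes tested, so the relation with length was not limited to the ribosomal protein genes. The genes share libraries and depth, and the correlations are descriptions. For mutant Q over the wild-type mean, rho with coding length was -0.38 across the same 76 genes. The part of RNA quality was not tested. The count-weighted mean of gene length given above includes these genes, which took 22.1% of the counts of mutant C.

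**Figure D3:**
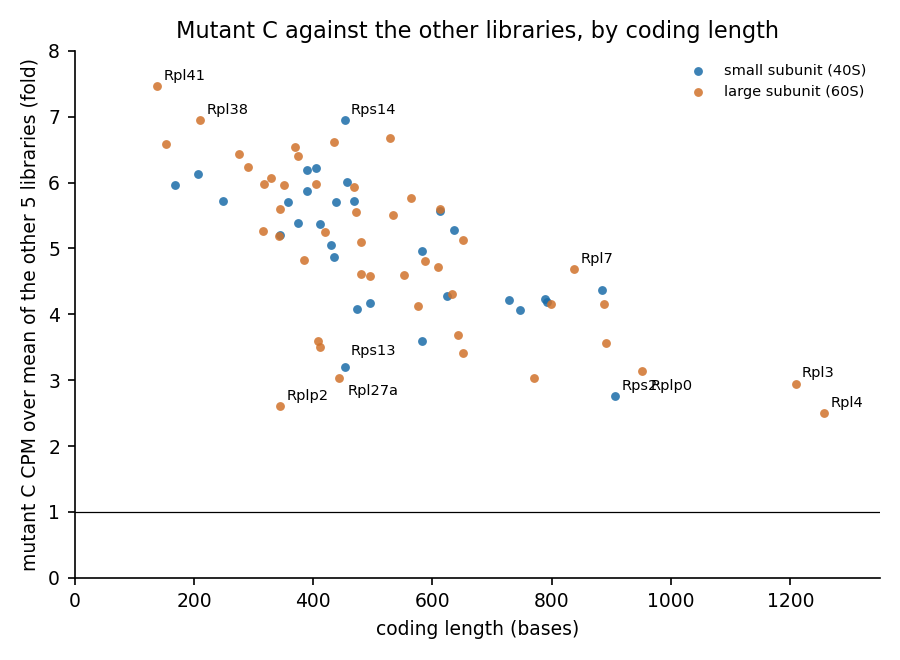
CPM in mutant C over the mean CPM of the other 5 libraries (fold, vertical axis) against coding length in bases (horizontal axis) for the 76 canonical ribosomal protein genes tested. The fold falls from 7.46 in Rpl41 to 2.51 in Rpl4, and Rplp2, Rpl27a and Rps13 lie below other genes of their length; the line marks equality.

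Relative to one another, the genes held their proportions closely in the other 5 libraries. Pearson's r of log2 TPM over the genes was 0.984 to 0.998 in the 10 pairs of those libraries and 0.948 to 0.978 for mutant C with any of these. The genes lie far apart in level, from 4.72 TPM for Rpl39l to 4631 TPM for Rplp1 in wild type. A spread of that size raises r in any pair, so r alone says little about proportions. The large subunit genes took 1.35, 1.35 and 1.35 times the counts of the small subunit genes in A, F and L against 1.30, 1.34 and 1.34 times in C, D and Q. Per length, by TPM, the ratio was 1.19 to 1.21 in all 6 libraries, mutant C included. The share of a gene in the counts of all 83 had a median SD of 0.0727 on the log2 scale over the 5 libraries, and it was under 0.1 for 57 genes. An SD of 0.2 or more was found in 4 genes, Rpl39l, Rpl27, Rpl15 and Rps19bp1.

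By the TPM of their own rows, the highest genes in wild type were Rplp1 (4631 ± 377), Rps6 (4624 ± 449), Rpl32 (4445 ± 618), Rplp0 (4180 ± 223) and Rps4x (4046 ± 384; SD, n = 3). These neighbours in the order do not differ beyond their spread. The order depends on near-identical copies, described next: Rps12 with its copy stood at 5218, 6046 and 6427 TPM in A, F and L, above Rplp1 with its copies in each. Rps6 encodes the protein that S6 kinase phosphorylates when growth signalling is on. It was at 4107, 4843 and 4922 TPM in wild type against 6508, 4865 and 4640 TPM in the mutant, with mutants D and Q inside the wild-type range. The lowest tested genes were Rpl39l (4.72 ± 3.06 TPM), a paralog known from testis, Rps19bp1 (51.2 ± 2.79), Rpl27 (135 ± 26.7), Rpl7l1 (141 ± 4.17) and Rpl27a (151 ± 12.1). For Rpl27 and Rpl27a most reads were assigned to another row, as described next.

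Many ribosomal protein genes have processed copies elsewhere in the genome, and RSEM had to divide reads between them. Among the rows of the files, 37 other rows were at least 95% identical, over at least 80% of their transcript, to 27 of the 86 genes. The copies held 10% or more of the combined counts in some library for 11 genes, and 50% or more in every library for 4. These were Rpl27 (89.4% to 94.8% in Rpl27-ps3), Rpl27a (87.5% to 92.8% in Gm7536), Rpl35 (78.1% to 79.4%, mostly in Gm2000) and Rpsa (50.03% to 51.02% in Rpsa-ps10). Rpl27-ps3 and Gm7536 matched their parent without a mismatch over 411 and 444 aligned bases, so reads from them cannot be told from those of the gene. How many of these reads came from the parents is therefore not known, and the parents' own rows may understate their level. Rps27 is the extreme case: it was listed at 0 in every library, and 341 of its bases are identical to Rps27rt, a retrogene that held 6771 to 25960 counts.

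Rpl15 and its copy Gm10020 are shown because only 2 mismatches separate them in the 612 aligned bases, which equal the coding length of Rpl15. The deposited mean length of the Rpl15 row was 965 bases. Reads from outside the aligned part can therefore also tell gene and copy apart. The windows are 31 bases of the coding strand, 5′ to 3′, with the differing base in capitals, and positions count from 1 at the first base of the start codon. Rpl15 lies on chromosome 14 from 18267823 to 18271391 (minus strand) and Gm10020 on chromosome 15 from 52477617 to 52478228 (minus strand). The substitutions, gene first and copy second, are A156G and C202A.
Rpl15 at 156: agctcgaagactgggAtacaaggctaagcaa
Gm10020 at 156: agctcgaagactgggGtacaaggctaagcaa
Rpl15 at 202: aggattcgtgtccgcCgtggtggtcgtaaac
Gm10020 at 202: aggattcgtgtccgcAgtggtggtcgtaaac
The copy's share of the combined counts was 32.7%, 10.1% and 24.8% in A, F and L against 10.6%, 7.12% and 32.2% in C, D and Q, and so varied within both genotypes. Rpl15 itself, at 530, 916 and 794 CPM in wild type against 4519, 963 and 837 CPM in the mutant, varied too. Gene and copy together gave 787, 1018 and 1055 CPM in wild type against 5050, 1036 and 1233 CPM in the mutant. With the copies added, the SD of its log2 share over the 5 libraries went from 0.208 to 0.0289, below the median of 0.0727 over the genes; its product joins the large subunit during assembly.

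A fall of this kind was seen in Rpl27 (SD 0.312, and 0.0694 with copies added), in Rpl10 (0.117 and 0.0522), a late-joining protein of the large subunit, and in Rps2 (0.15 and 0.0824). It was not general. The median SD over the genes was 0.0727, and 0.0712 with copies added, and it rose in Rpl27a (0.0686 and 0.1), Rps12 (0.0233 and 0.0594), Rpl35 (0.111 and 0.127) and Rpl41 (0.0712 and 0.0866). Adding the copies ended the separation of the genotypes in Rps2, Rps12 and Rplp1 and made one in Rps7. Rps12 with its copy was at 1544 CPM in wild type L and 1533 CPM in mutant D, and Rplp1 with its copies at 1255 and 1250 CPM. The row of Rps2 had 1703, 1663 and 1944 CPM in wild type against 5322, 2080 and 2241 CPM in the mutant, and a log2 change of 0.28 without mutant C (unadjusted p = 0.02 and adjusted p = 0.37 by edgeR). Its copies, chiefly Rps2-ps6, held 0.560%, 12.7% and 7.10% of the combined counts in A, F and L but 13.7%, 0.311% and 0.469% in C, D and Q. Gene and copies together gave 1710, 1903 and 2092 CPM in wild type against 6159, 2084 and 2251 CPM in the mutant, so that wild type L now lay above mutant D. The log2 change without mutant C became 0.18 (unadjusted p = 0.11 by edgeR). With copies added for all genes, 17 genes separated between genotypes, against 10.6% of all genes.

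**Figure D4:**
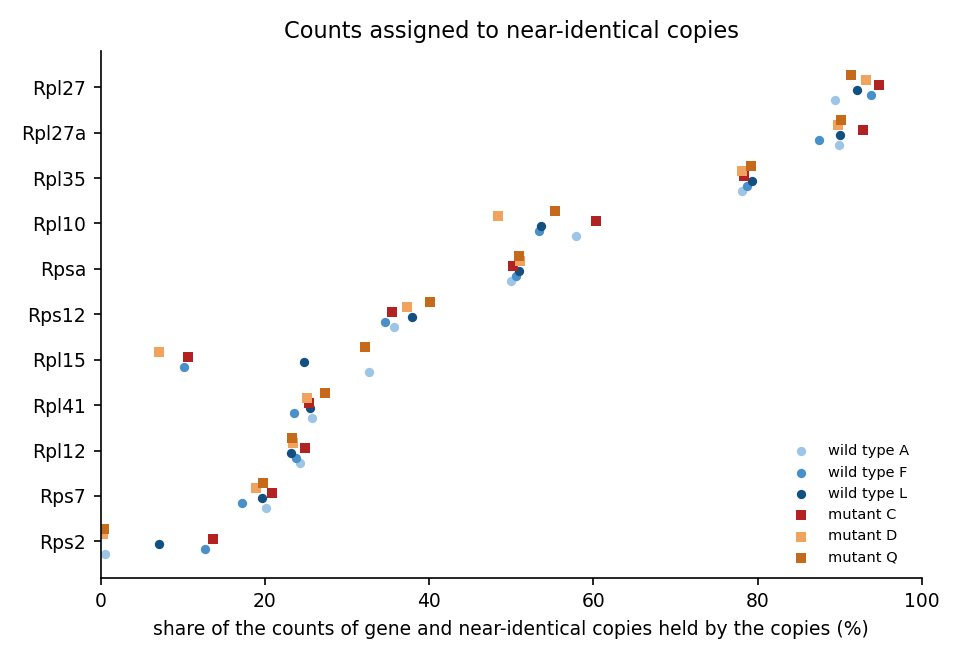
Share of the combined counts of a gene and its near-identical copies that was assigned to the copies (%, horizontal axis), for the 11 genes where it reached 10% in some library; each point is 1 library, circles wild type and squares mutant. Rpl35 and Rpsa hold nearly the same share in all libraries, while Rpl15 spreads from 7.12% to 32.7% and Rps2 from 0.311% to 13.7%.

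For Rpl35 the row of its copy Gm2000, which the annotation calls protein-coding, held most of the reads. Rpl35 lies on chromosome 2 from 39001580 to 39005624 (minus strand). Rpl35's own row stood at 101, 135 and 139 CPM in wild type against 925, 150 and 182 CPM in the mutant, with no overlap. Its log2 change was 1.74 (standard error 0.72, edgeR adjusted p = 0.58), and 0.40 (standard error 0.15, adjusted p = 0.43) without mutant C. Gene and copies together gave 459, 634 and 675 CPM in wild type against 4279, 682 and 875 CPM in the mutant. The separation remained and the log2 change without mutant C was 0.39, with an unadjusted p of 0.053 by edgeR in place of 0.029.

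Among the paralogs, Rps27l, a p53 target that encodes another form of RPS27, had the smallest p of all 83 genes. It stood at 128, 170 and 169 CPM in A, F and L against 986, 190 and 244 CPM for C, D and Q (chromosome 9 from 66946086 to 66949516, plus strand). The groups did not overlap. The log2 change was 1.61 (standard error 0.64, unadjusted p = 0.044, edgeR adjusted p = 0.58), and 0.48 (standard error 0.15, unadjusted p = 0.015, adjusted p = 0.32) without mutant C.
Rpl22l1, the paralog that RPL22 represses, was at 191, 270 and 279 CPM in wild type against 1526, 281 and 397 CPM in the mutant. Mutant D exceeded wild type L by a narrow margin, and the log2 change without mutant C was 0.45 (standard error 0.19, edgeR adjusted p = 0.48).
Rpl7l1, related to RPL7, was at 175, 193 and 190 CPM in wild type against 353, 210 and 212 CPM in the mutant, the smallest excess of mutant C in the family, with a log2 change of 0.18 without it (adjusted p = 0.48). By TPM it was 145, 142 and 137 in wild type against 87.9, 154 and 139 in the mutant, so that mutant C was then the lowest library.

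The ratio of paralog to parent within a library does not depend on how libraries are scaled. Of 4 pairs tested, none can pass 0.05, since the smallest p that 3 against 3 libraries allow is 0.1 (exact permutation test, two-sided). Rpl22l1 was 60.4%, 65.5% and 65.1% of Rpl22 by TPM in wild type against 63.2%, 63.9% and 64.7% in the mutant, a difference in log2 ratio of 0.01 (exact p = 1, adjusted p = 1). The ratio in mutant C lay inside the wild-type range.
Rpl36al, an intron-containing relative of Rpl36a, was 43.5%, 38.5% and 40.7% of its parent in wild type against 31.5%, 37.6% and 31.7% in the mutant. The groups did not overlap, the mutant being lower, with a log2 difference of -0.29 at the smallest p the design allows (exact p = 0.1, adjusted p = 0.4 over the 4 pairs).
Rpl7l1 was 4.78%, 4.11% and 3.79% of Rpl7 in wild type against 1.59%, 4.30% and 3.85% in the mutant (exact p = 0.5, adjusted p = 0.933). Mutant C alone was low. The Rpl7l1 row is longer than that of Rpl7 (2606 against 970 bases), and the part of length in this ratio was not tested. Rpl39l ranged from 0.108% to 0.342% of Rpl39 (exact p = 0.7, adjusted p = 0.933), on only 15 to 86.8 Rpl39l counts per library. Rps27l against Rps27rt was 30.4%, 28.6% and 27.5% in wild type against 24.7%, 31.1% and 33.8% in the mutant. That ratio is a description, since reads of Rps27 and Rps27rt cannot be told apart where their bases are identical.

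**Figure D5:**
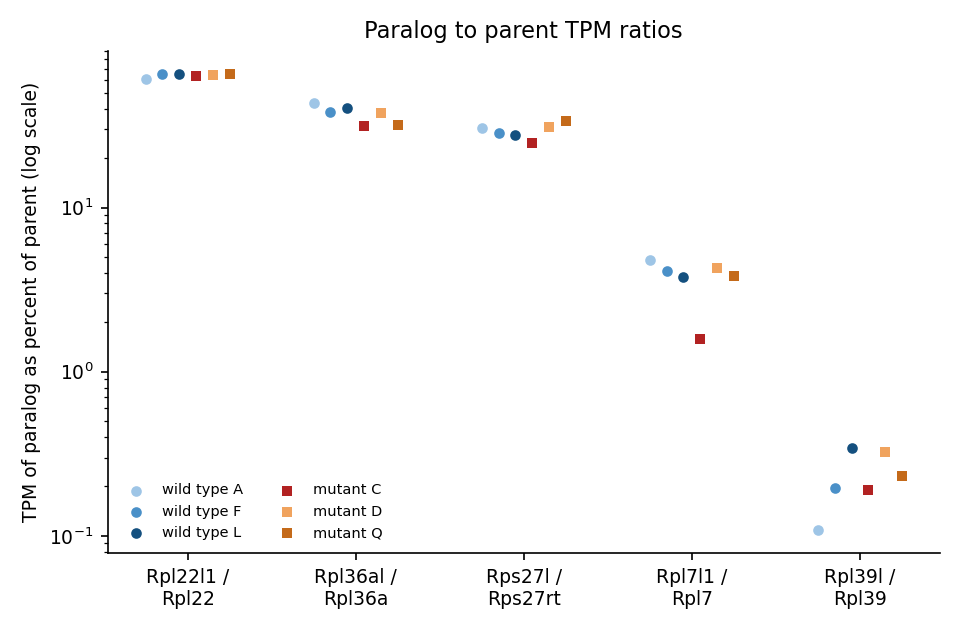
TPM of a paralog as percent of its parent gene (vertical axis, log scale) in each library, circles wild type and squares mutant. Rpl22l1 holds at 60.4% to 65.5% of Rpl22 in all libraries, Rpl36al is lower in the 3 mutant libraries (31.5% to 37.6%) than in wild type (38.5% to 43.5%), and Rpl7l1 drops to 1.59% of Rpl7 in mutant C.

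Other genes of ribosome production had smaller median changes, and by edgeR none passed with all libraries or without mutant C. The 22 other TOP mRNAs, which encode elongation and initiation factors and related proteins, had a median log2 change of 0.50, and 0.13 without mutant C. Npm1, a nucleolar chaperone, stood at 2743, 3510 and 3616 CPM in wild type against 10510, 3765 and 4322 CPM in the mutant, with no overlap. The 49 ribosome biogenesis factors had a median of 0.25 and, without mutant C, 0.06, and the 20 genes of RNA polymerase I and its factors 0.49 and 0.08. The 77 mitochondrial ribosomal proteins, which build the separate ribosome of mitochondria, had a median of 0.80 and, without mutant C, 0.12. With all libraries 0 genes of these 4 lists had an unadjusted p under 0.05, and without mutant C 1, 1, 2 and 9 had one, against 10.4% of all genes. In mutant C the median fold over the other 5 libraries was 2.04 for the TOP mRNAs, 1.52 for biogenesis factors, 1.88 for polymerase I genes and 2.92 for mitochondrial ribosomal proteins, beside 5.19 for the cytosolic ones.

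Markers of other cell types were followed beside these genes. The 17 hepatoblast markers tested with all libraries had a median log2 change of 2.79, with 0 past the threshold by edgeR and 12 at an unadjusted p under 0.05, against 4.8% of all genes. The 18 tested without mutant C had a median of 2.61, with 0 past the threshold and 15 at an unadjusted p under 0.05, against 10.4% of all genes. Of the 14 erythroid markers tested with all libraries 1 fell, the erythropoietin receptor gene Epor, where 0.155% of all genes passed. At an unadjusted p under 0.05 there were 7. The median was -0.50, and 5 of the 14 had a change above 0, up to 3.07. Of the 15 tested without mutant C 5 fell, Epor, Car2, Ermap, Gata1 and Klf1, where 0.84% of all genes passed. At an unadjusted p under 0.05 there were 14. The median was -1.15, and 1 of the 15 had a change above 0, at 1.37. Among 10 progenitor markers 0 passed with all libraries (1 at an unadjusted p under 0.05), and without mutant C 1 fell, the transcription factor gene Myb (log2 change -0.57, edgeR adjusted p = 0.02). Without mutant C 4 of the 10 had an unadjusted p under 0.05. The change was above 0 for 6 with all libraries and for 3 without mutant C. In bulk samples fewer cells of a type and less RNA per cell cannot be told apart.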

How the data were processed

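RNA sequencing of 6 libraries was analysed from gene tables. The tools listed in the submitters' processing notes, with no roles given, are CASAVA 1.8.2, Bowtie 1.1.1 and RSEM 1.2.18, and the genome build is mm10. The sources used here name no annotation and do not say whether counting used strand. Expected counts, estimated by RSEM and not normalized, were deposited by the authors, per the file headers. TPM and FPKM values were deposited by the authors too; TPM gave levels between genes and FPKM was not used. Another deposited column, per the file headers, is gene length in bases.

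The genes and lists were chosen with earlier results of these data known. Expected counts were rounded and fitted with edgeR 4.0.16 (R 4.3.3), using filterByExpr (minimum count 10), TMM and the quasi-likelihood F test of mutant against wild type on 6 libraries without covariates. P-values were Benjamini-Hochberg adjusted over all 12222 genes tested, or 12614 without mutant C, at a threshold of 0.05. DESeq2 1.42.0, limma-voom and limma 3.58.1 on log2(TPM + 1) were alternatives, as were other scalings, no filter, a loess trend on gene length (span 0.5) taken out, and each library left out. Changes by TPM are on the log2(TPM + 1) scale. Copies were found with blastn 2.17.0 on GENCODE M21 transcripts. Gene names matched 24448 of 24815 rows. The edgeR script was tested on simulated counts.

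Genes were named by a rule, namely the 8 smallest p with all libraries and without mutant C, the 5 highest and 5 lowest by TPM, paralogs and parents, Rps19, Rpl5, Rpl11, the stalk, Gata2, and up to 4 genes of each other list. Rpl4, Rpl15, Rpl18, Rpl28, Rpl36, Rpl38, Rps7, Rps12, Rps13, Rps18, Rps25, Rps29, Rpsa and the copies were chosen after their values were seen. Items withheld for evaluation are not reported here.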

Additional observations from a re-analysis of the deposited data

How the results depend on the processing

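By edgeR, DESeq2, limma-voom and limma, under every alternative run, 0 ribosomal protein genes passed the threshold. The adding of copies and the 2 fits that combine a change with leaving out mutant C were chosen after seeing the data. The median log2 change of 1.41 became 0.0593 scaled to the genes' own total, a scaling that brings their median near 0 by construction. It became 0.46 with the length trend removed and 0.17 with that and without mutant C. By limma-voom with quality weights it was 0.18, by limma on log2 TPM 0.35, and with copies added and without mutant C 0.19. Leaving out 1 library gave 0.20 (without mutant C) to 1.78 (without mutant D). The SD of the changes among the genes, 0.31, was 0.21 by TPM and 0.13 to 0.36 with a library left out. Scaled to the genes' own total, 17 genes were higher and 12 lower without overlap (0.458% and 28.7% of all genes, shares that the scaling itself shifts). The 19 genes without overlap, all higher in the mutant (10.6% of all genes), became 29 by DESeq2 (9.21%) and 38 with the length trend removed (15.7%). They became 40 with that and without mutant C (21.3%). With a library left out they numbered 19 to 72, the highest counts being 72 without mutant D (22.1% of all genes) and 56 without wild type L (17.5%). The share of counts, a ratio of 1.67, was 1.30 by TPM and 1.11 to 1.97 with a library left out.

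Scaled to the genes' own total, each change is relative to the other genes of the set, so some lie below 0 by construction. Among the genes named in the text, and so scaled, the log2 change turned below 0 for Rpl10 (-0.0854), Rpl27 (-0.30), Rpl27a (-0.26), Rpl28 (-0.30), Rpl3 (-0.28), Rpl36al (-0.0704), Rpl4 (-0.30), Rpl5 (-0.15), Rpl7 (-0.00412), Rpl7l1 (-0.37), Rplp0 (-0.30), Rplp2 (-0.37), Rps13 (-0.27), Rps19 (-0.0198), Rps19bp1 (-0.40), Rps2 (-0.17), Rps29 (-0.0191), Rps4x (-0.16), Rps6 (-0.10) and Rpsa (-0.0831). By limma on TPM it turned, among those named, for Rpl28 (-0.0039), Rpl3 (-0.00556), Rpl4 (-0.0514), Rpl7l1 (-0.19), Rplp2 (-0.0822) and Rps19bp1 (-0.10), and by limma-voom for Rps19bp1 (-0.0725) and Rps29 (-0.0091). With the length trend removed it turned for Rplp2 (-0.0939), and with that and without mutant C for Rpl27 (-0.0166), Rpl28 (-0.0267), Rps19bp1 (-0.0915) and Rps29 (-0.0285). With copies added and without mutant C it turned for Rps19bp1 (-0.0497). With 1 library left out Rps19bp1 ran from -0.0497 (without mutant C) to 1.06. With 1 library left out the log2 paralog ratio ran from -0.0303 (without wild type A) to 0.0285 for Rpl22l1, and was -0.00168 without mutant Q, and from -0.0994 (without wild type A) to 0.732 for Rpl39l. From expected counts it was 0.126 for Rpl22l1 (exact permutation p = 0.2), against 0.0072 by TPM. Of 908 alternative values of 56 named genes, 840 kept their direction and side of the threshold. The cause of the shifts was not tested. The call of Epor ended when any library but mutant C was left out. No paired analysis was possible because the replicate letters differ between the genotypes.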
